A study of Mus musculus with 6 samples.

Results

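The dystrophin-glycoprotein complex is described here in mouse soleus, a muscle of the calf, through 8 named genes: Dmd, Utrn, Sgca, Sgcb, Sgcd, Dag1, Sntb1 and Dtna. A gene was taken from an array feature annotated with that gene's symbol and no other. By this rule 7 of the 8 genes were found, of 30142 genes with such a feature, and each was represented by 1 feature. Dtna, which encodes alpha-dystrobrevin, shared its feature with another symbol and was not analysed here. All 7 passed the filter on low values, and none lay at the ceiling of the scale. The samples were 3 Control mice, labelled wild type, and 3 cKO mice, labelled DMP1 Cre Mbtps1 knockout, all male, aged 39 to 41 weeks and littermates by the series title. In the cKO mice the deletion of Mbtps1, the gene of site-1 protease, is directed by Cre from the Dmp1 promoter, which is used to target osteocytes, the cells within bone. Whether the Control mice carried the Cre transgene or unrecombined Mbtps1 alleles, and which cells of the muscle had recombined, is not stated in the labels. Each mouse gave 1 array, and the number of arrays limits the precision.

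The complex spans the sarcolemma, the membrane of the muscle fibre. Dystrophin binds actin inside the fibre and beta-dystroglycan at the membrane, and alpha-dystroglycan binds laminin outside, so that the cytoskeleton is tied to the basement membrane. The sarcoglycans brace this link within the membrane, and the syntrophins and dystrobrevins hold signalling proteins and channels beneath it. Loss of dystrophin or of a sarcoglycan leaves fibres open to damage during contraction and underlies several muscular dystrophies.

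RefSeq promoter windows on GRCm38.p6, running from 250 bases before to 50 after an annotated start, were found for 6 of the 7 genes, 8 windows in all. The windows of Sgca, Sgcd and Dag1 are printed because their Control and cKO values did not overlap as deposited, and that of Dmd because its values did. For Sntb1, whose values did not overlap either, no window was found. Capitals mark the E-box CANNTG, which is bound by myogenic and clock factors. The pattern CANNTG is the same on both strands, though the letters of a single match need not be.
Sgca, chr11:94976278-94976577, minus strand: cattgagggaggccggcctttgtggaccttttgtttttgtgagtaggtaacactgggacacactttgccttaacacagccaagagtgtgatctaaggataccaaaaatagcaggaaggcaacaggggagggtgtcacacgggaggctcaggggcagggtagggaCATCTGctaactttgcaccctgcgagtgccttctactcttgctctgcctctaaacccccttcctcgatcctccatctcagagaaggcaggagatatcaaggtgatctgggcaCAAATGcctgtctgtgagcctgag
Sgcd, chr11:47379276-47379575, minus strand: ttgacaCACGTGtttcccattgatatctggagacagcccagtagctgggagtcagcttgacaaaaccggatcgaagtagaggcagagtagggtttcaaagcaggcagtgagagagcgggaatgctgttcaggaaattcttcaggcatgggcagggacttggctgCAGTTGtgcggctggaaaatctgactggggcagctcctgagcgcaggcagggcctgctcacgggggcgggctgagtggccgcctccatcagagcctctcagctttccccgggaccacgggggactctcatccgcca
Dag1, chr9:108263909-108264208, minus strand: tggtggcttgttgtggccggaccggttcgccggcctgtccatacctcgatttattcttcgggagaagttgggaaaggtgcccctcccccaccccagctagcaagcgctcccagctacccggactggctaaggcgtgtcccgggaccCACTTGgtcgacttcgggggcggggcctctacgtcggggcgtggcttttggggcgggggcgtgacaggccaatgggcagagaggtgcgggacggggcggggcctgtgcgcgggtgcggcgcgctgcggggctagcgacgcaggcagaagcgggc
Dmd, chrX:82948620-82948919, plus strand: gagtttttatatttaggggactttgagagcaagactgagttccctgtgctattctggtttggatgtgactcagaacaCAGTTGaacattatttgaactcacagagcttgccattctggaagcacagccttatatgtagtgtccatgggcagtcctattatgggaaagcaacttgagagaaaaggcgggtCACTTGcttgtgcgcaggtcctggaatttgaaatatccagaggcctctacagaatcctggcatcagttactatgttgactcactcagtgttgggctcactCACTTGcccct
The printed windows held 2 E-boxes in Sgca, 2 in Sgcd, 1 in Dag1 and 3 in Dmd, and Dag1 and Dmd each had a further window that is not printed. The Utrn window held 7 and the Sgcb window 0. An E-box was present in 72.3% of the 32851 RefSeq windows of this length. The form CACGTG, which the E-box search also finds, occurred in Sgcd and Utrn and in 7.15% of all windows. Neither CAGCTG, in 16.3% of all windows, nor the N-box CCGGAA on either strand, in 14.9%, occurred in the 8 windows. These matches describe letters in the windows and were not linked to binding.

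The arrays were of skeletal muscle by their markers. The 8 listed muscle genes, among them Acta1, Ckm and Myh7, were all measured, with list means of 16.7 to 16.8 log2 units in Control and 16.7 to 16.9 in cKO. Acta1, Ckm and Myh7 lay near the top of the scale, at 19.2 to 19.93, where a difference could be hidden. By their mouse numbers, Control 1, Control 2 and cKO 1 (715, 716 and 733) formed a low range, and Control 3, cKO 2 and cKO 3 (776, 779 and 780) a high one. The labels do not say what the ranges stand for. A difference among low-numbered mice set cKO 1 alone against Control 1 and Control 2. One among high-numbered mice set cKO 2 and cKO 3 against Control 3 alone. The array cKO 1 had the highest median, 4.37 against 4.0 to 4.13 for the others, and the lowest limma array weight, 0.254 against 0.589 to 4.01. Across the 33334 features tested, the median of cKO minus Control stood at 0.07 log2 units, at 0.26 among low-numbered and -0.04 among high-numbered mice, and -0.02 without cKO 1.

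Within the complex, the genes of alpha-sarcoglycan, delta-sarcoglycan, dystroglycan and beta-1-syntrophin lay higher on every cKO array than on every Control array as deposited. Those of dystrophin, utrophin and beta-sarcoglycan overlapped between genotypes. Only the gene of beta-1-syntrophin stayed apart after both quantile normalization and median centring, and differences between members were not tested. No member passed an adjusted p of 0.05 (limma adjusted p = 0.999 for each), and neither did any other feature (0% of 33334). At an unadjusted p under 0.05, 3 of the 7 members were higher in cKO and 0 lower, where 3.70% of all features tested were higher at that level and 4.50% were called in either direction. The share called was larger among features more like the members. It was 1157 of 16630 features above the 75th percentile of their array, and 1282 of 18636 features with 1 symbol, in either direction. All cKO arrays lay above all Control arrays for 4 of the 7 members, against 8.95% of all features. After quantile normalization this held for 2 members, Dag1 and Sntb1, against 4.99% of features, and after centring on array medians for Sgcd and Sntb1, against 5.15%. The median of the 7 differences was 0.32 log2 units, and 6 of 7 were above 0, as were 65.8% of all features. The intensity of a feature depends on its probes, so a higher signal of one gene than of another is not read as more transcript.

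**Figure D1:**
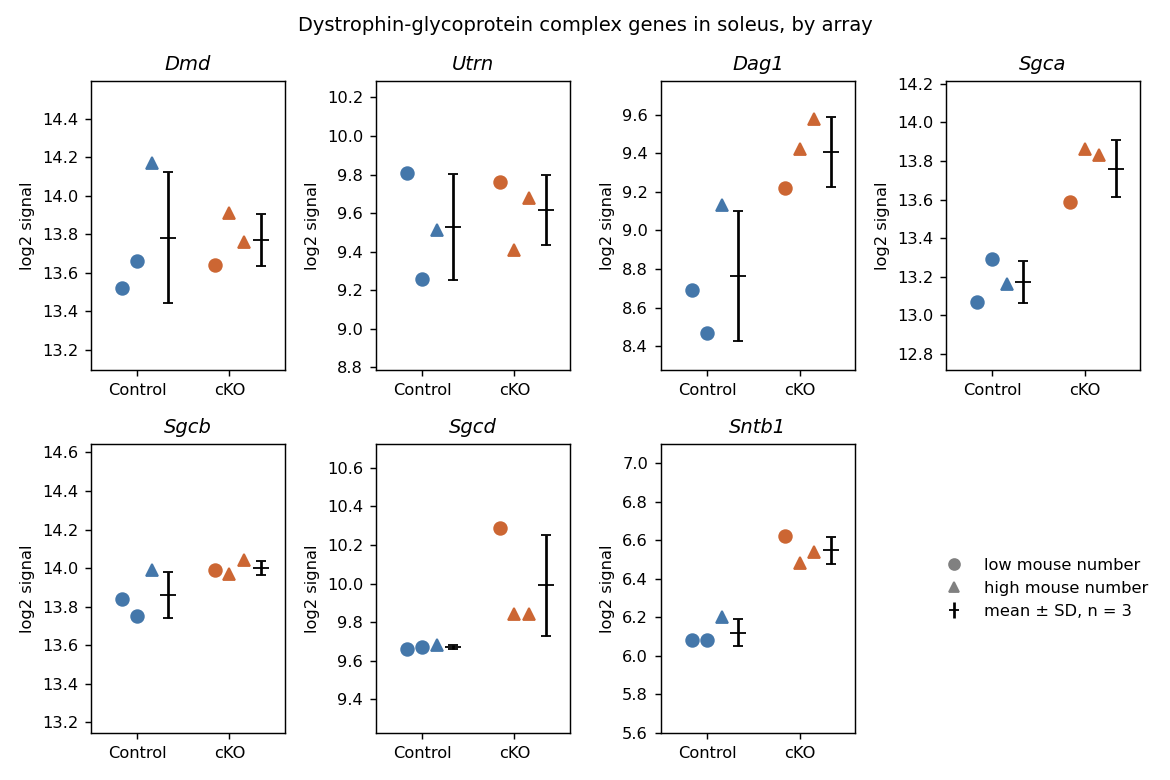
Log2 signal of each member in the 3 Control (blue) and 3 cKO (orange) arrays, with the mean and SD of each group in black. Every panel spans the same number of log2 units. Circles are low and triangles high mouse numbers. On this scale, as deposited, the groups do not overlap for Dag1, Sgca, Sgcd and Sntb1.

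Dmd encodes dystrophin, the large rod-shaped protein that ties actin to the membrane. Log2 signals on the Control arrays (1 to 3) were 13.52, 13.66 and 14.17, and those on the cKO arrays (1 to 3) were 13.64, 13.91 and 13.76. All cKO values lay within the Control range, and Control 3 was the highest array. The difference was -0.013 log2 units (SE 0.23), with a 95% interval of -0.57 to 0.54, which leaves room for a change in either direction. The sign was not stable, at 0.05 among low-numbered and -0.33 among high-numbered mice and 0.18 without Control 3.

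Utrn encodes utrophin, a relative of dystrophin that is concentrated at the neuromuscular and myotendinous junctions of adult fibres and can stand in for dystrophin in mice that lack it. The Control arrays, in the order 1 to 3, read 9.81, 9.26 and 9.51, whereas the cKO arrays read 9.76, 9.41 and 9.68, again with the cKO values inside the Control range. The difference was 0.087 log2 units (SE 0.22, 95% interval -0.43 to 0.60), and -0.047 without Control 2. On the same array, log2 Utrn minus log2 Dmd, whose height depends on the probes of both, averaged -4.25 ± 0.49 (SD, n = 3) among Control mice, and the cKO mean was -4.15 ± 0.32 (SD, n = 3). This within-array contrast moved by 0.10 between genotypes, less than the spread of either group, and its sign turned without Control 3 or cKO 1 (-0.10 and -0.04).

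Dag1 encodes the precursor that is cut into alpha- and beta-dystroglycan, the laminin receptor and its membrane anchor. Log2 signals on the Control arrays (1 to 3) were 8.69, 8.47 and 9.13, and those on the cKO arrays (1 to 3) were 9.22, 9.42 and 9.58. The groups were parted by 0.09 log2 units, with Control 3 next to cKO 1. The difference of 0.65 (SE 0.23, 95% interval 0.10 to 1.20), a 1.57-fold higher mean, had a limma adjusted p of 0.999 and an unadjusted p of 0.0273. It was 0.65 among low-numbered and 0.37 among high-numbered mice and 0.74 without cKO 1. After centring on array medians the groups overlapped, at 4.44 to 5.06 in Control and 4.85 to 5.58 in cKO.

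The members included 3 sarcoglycan genes, and differences between them were not tested. Outside the members, the sarcoglycan gene Sgce differed by -0.053 log2 units (SE 0.15) with overlap, and Sgcz lay below the filter. Sgca encodes alpha-sarcoglycan, the subunit made in striated muscle. The Control arrays, in the order 1 to 3, read 13.07, 13.29 and 13.16, whereas the cKO arrays read 13.59, 13.86 and 13.83. The gap between the groups was 0.30 log2 units, and cKO 1 was the lowest cKO array. The difference was 0.59 (SE 0.19, 95% interval 0.14 to 1.03), 1.5-fold, with a limma adjusted p of 0.999 and an unadjusted p of 0.0169. It was 0.41 among low-numbered and 0.69 among high-numbered mice and 0.67 without cKO 1. The groups overlapped by 0.01 after quantile normalization and by 0.04 after median centring, in both cases through cKO 1.

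Sgcd encodes delta-sarcoglycan, a subunit shared by skeletal, cardiac and smooth muscle. Log2 signals on the Control arrays (1 to 3) were 9.66, 9.67 and 9.68, and those on the cKO arrays (1 to 3) were 10.29, 9.84 and 9.84. The Control arrays lay within 0.02 log2 units of each other, and cKO 1 stood apart from the other cKO arrays. The difference of 0.32 (SE 0.20, 95% interval -0.15 to 0.79, limma adjusted p = 0.999) was 0.63 among low-numbered and 0.16 among high-numbered mice. Without cKO 1 it was 0.17, and after quantile normalization the groups overlapped by 0.06.

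Sgcb encodes beta-sarcoglycan, also found outside striated muscle, which forms the core of the subcomplex with delta-sarcoglycan. The Control arrays, in the order 1 to 3, read 13.84, 13.75 and 13.99, whereas the cKO arrays read 13.99, 13.97 and 14.04. The cKO arrays were close together, and Control 3 reached into their range. The difference was 0.14 log2 units (SE 0.17, 95% interval -0.28 to 0.56).

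Sntb1 encodes beta-1-syntrophin, an adaptor that binds dystrophin, utrophin and dystrobrevin and carries a PDZ domain for signalling proteins and channels. Log2 signals on the Control arrays (1 to 3) were 6.08, 6.08 and 6.20, and those on the cKO arrays (1 to 3) were 6.62, 6.48 and 6.54. The gap of 0.28 log2 units exceeded the range within either group, 0.11 in Control and 0.14 in cKO. The difference was 0.43 (SE 0.13, 95% interval 0.12 to 0.73), 1.34-fold, with a limma adjusted p of 0.999 and an unadjusted p of 0.0135. It was 0.54 among low-numbered and 0.31 among high-numbered mice and 0.39 without cKO 1. The groups stayed apart after quantile normalization, by 0.24, and after median centring, by 0.13. The unadjusted limma p was under 0.05 in each of the 18 alternative fits (0.00504 to 0.0483), against 12 for Sgca (0.00175 to 0.105) and 11 for Dag1 (0.00402 to 0.09). The adjusted p of no member passed in any of them. These fits reuse the same mice and many keep the same difference, so they are not independent checks.

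**Figure D2:**
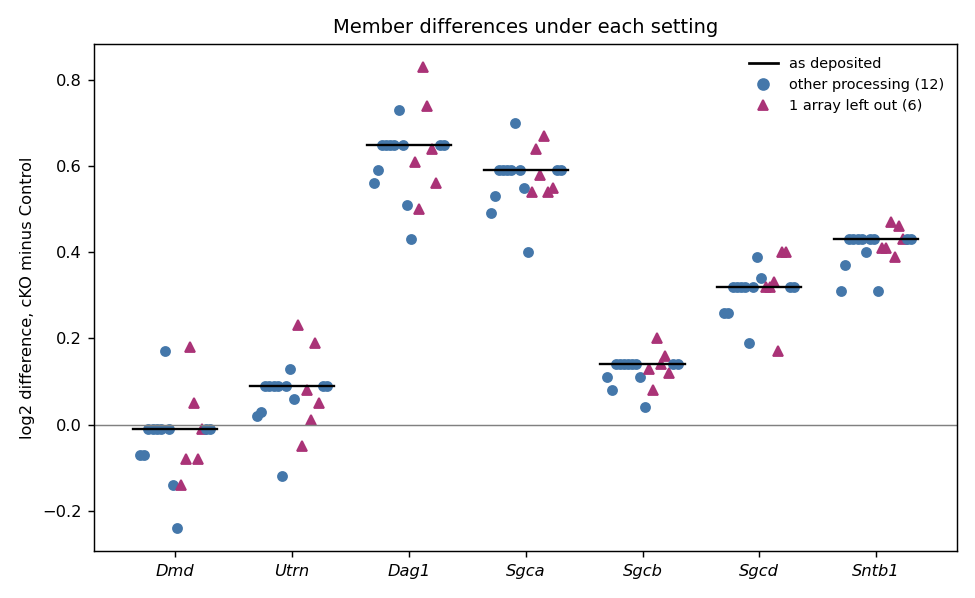
Log2 difference (cKO minus Control) of each member as deposited (black line), under 12 other processing choices (blue circles) and with 1 array left out (6 fits, purple triangles). Sgca, Sgcb, Sgcd, Dag1 and Sntb1 stay above 0 throughout, and Dmd and Utrn cross 0. Choices that alter only the features tested or the variance model, and the replicate block, cannot move a difference. Their circles repeat the black line and are no sign of stability.

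The other genes of the complex were read from the same fit. Of 13 listed, 11 had a feature of their own, 8 were above the filter, 5 were higher and 3 lower in cKO (4 and 4 after quantile normalization), and 0 passed an adjusted p of 0.05 in limma or an unadjusted p of 0.05. Over all features tested, 65.8% had a difference above 0 as deposited. The median difference of the 8 genes was 0.11 log2 units, and 0.01 after quantile normalization. The 3 with the smallest p were Cav3, Drp2 and Sspn. Cav3 encodes the muscle caveolin that binds beta-dystroglycan, and its signal was 8.47, 9.30 and 9.03 in Control and 9.38, 9.53 and 9.64 in cKO, without overlap (difference 0.58, SE 0.25), though the groups overlapped by 0.09 after quantile normalization and by 0.27 after median centring. Drp2, a dystrophin relative known from Schwann cells, differed by 0.50 (SE 0.25), and Sspn, the gene of the membrane protein sarcospan, by 0.35 (SE 0.20), both with overlap. Nos1, the gene of the nitric oxide synthase held at the membrane by syntrophin, was named after its value was seen. It had the lowest difference of the list, -0.43 (SE 0.30), and cKO 3 at 5.68 lay below all other arrays, which ran from 6.32 to 6.97.

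Alpha-dystroglycan binds laminin through sugar chains that begin with mannose and are built in the endoplasmic reticulum and Golgi. Of 18 genes listed for this pathway, 10 had a feature of their own and 9 were tested, with 7 higher, 2 lower and 0 past an adjusted p of 0.05 in limma. At an unadjusted p under 0.05, 2 of the 9 were higher and 0 lower, against 3.70% of all features higher and 4.50% in either direction, and 65.8% of all features had a difference above 0. The median difference of the 9 was 0.10 log2 units, or 0.02 after quantile normalization. Pomgnt2, an enzyme that extends the mannose, had signals of 4.24, 4.33 and 4.24 in Control and 4.81, 4.62 and 4.51 in cKO, near the array medians (difference 0.37, SE 0.13). Pomt1, part of the enzyme that attaches the mannose, had 5.69, 5.59 and 5.90 in Control and 6.03, 6.06 and 6.10 in cKO (difference 0.33, SE 0.14). As deposited neither gene's groups overlapped. After median centring those of Pomt1 did, by 0.16, and those of Pomgnt2 stayed apart by 0.13. Pomt2, the partner of Pomt1, differed by 0.22 (SE 0.15) with overlap.

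Among 15 listed binding partners and membrane neighbours, 13 were tested, 11 were higher and 2 lower (9 and 4 after quantile normalization), and 0 passed an adjusted p of 0.05 in limma. As deposited, 65.8% of all features had a difference above 0. Their median difference was 0.26 log2 units, or 0.14 after quantile normalization. At an unadjusted p under 0.05, 1 of the 13 was higher, against 3.70% of all features. This was Dysf, the gene of the membrane repair protein dysferlin, with Control arrays at 7.97, 7.54 and 9.91 and cKO arrays at 9.95, 10.28 and 10.38. Control 3 lay 0.04 below the lowest cKO array and far above the other Control arrays, and the groups overlapped by 0.04 after quantile normalization and by 0.25 after median centring. The difference of 1.73 (SE 0.59) was 2.19 among low-numbered and 0.42 among high-numbered mice. Sync, an intermediate filament protein that binds dystrobrevin, differed by 0.54 (SE 0.28) and the kinase gene Mark2 by 0.26 (SE 0.14). Lama2, which encodes the laminin chain bound by dystroglycan and was also named after its value was seen, differed by 0.55 (SE 0.32), at 1.13 among low-numbered and -0.12 among high-numbered mice.

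**Figure D3:**
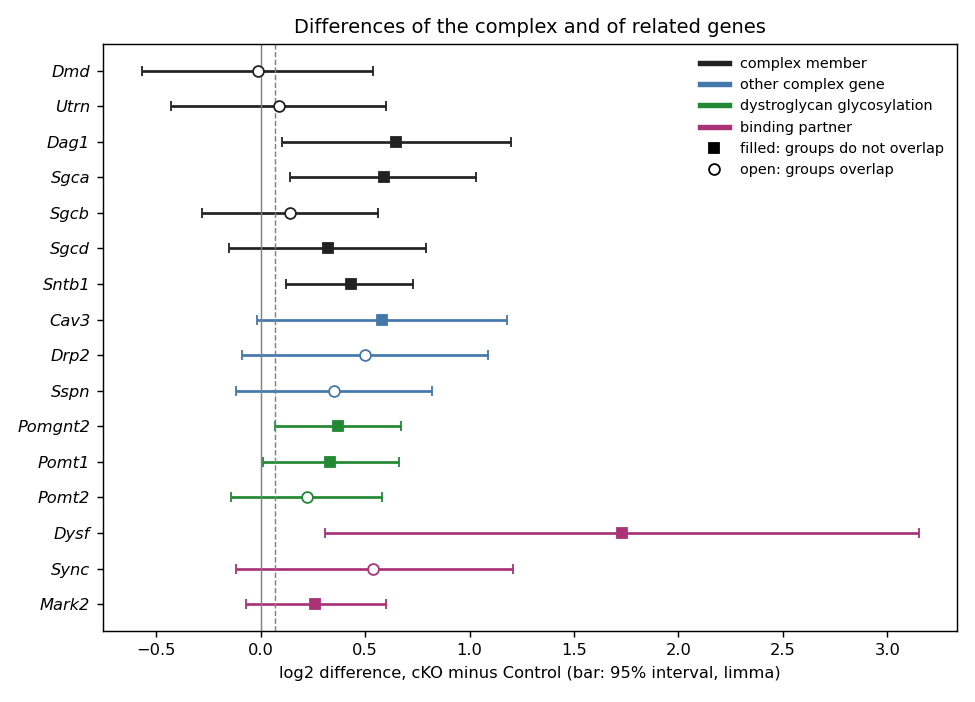
Log2 differences (cKO minus Control) with 95% intervals from limma for the 7 members and the 3 genes with the smallest p of each related list. The solid line marks 0 and the dashed line the median over all features, 0.07. Filled squares mark genes whose groups do not overlap as deposited. Of these, Sntb1 and Pomgnt2 stay apart after both quantile normalization and median centring, and the others overlap after at least one of them.

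Marker lists of other cells and of special fibre regions were read on the same arrays, and no list was tested. Averaged over the 7 members, each centred on its own mean, the Control arrays stood at -0.19, -0.26 and -0.02, and the cKO arrays at 0.16, 0.13 and 0.18. The list mean of the 10 tendon genes above the filter on low values, of 12 measured, ran from 5.98 to 6.79 log2 units in Control and from 7.29 to 7.66 in cKO, with Control 3 the highest Control array as for the members. The 9 neuromuscular junction genes of 9 ran from 7.33 to 7.66 and from 7.72 to 8.08. Of these 9, 6 were higher in cKO, where 65.8% of all features were higher. Chrne, Ache and Colq were lower, Colq without overlap, and Musk had the widest difference, 1.39. The 5 new fibre genes above the filter, of 6 measured, ran from 6.59 to 7.02 and from 7.17 to 7.21. Of these 5, 4 were higher in cKO and Mymx was lower (-0.11), where 65.8% of all features were higher. Embryonic myosin Myh3 and Myod1 had the widest differences of these, 1.0 and 0.59, and the groups overlapped for Myh3. The 8 smooth muscle genes of 8 ran from 6.95 to 7.09 and from 7.17 to 7.49. Means of 7 fibroblast, 7 endothelial and 5 Schwann cell genes overlapped between genotypes, at 9.52 to 10.4, 8.99 to 10.0 and 5.92 to 6.24 in Control and 9.65 to 10.7, 9.19 to 9.41 and 5.97 to 6.24 in cKO. The tendon mean alone of these lists stayed apart between genotypes after both quantile normalization and median centring. The new fibre mean stayed apart after quantile normalization and overlapped after median centring, the smooth muscle mean did the reverse, and the junction mean overlapped after both. The mean of the members also overlapped after both, for example at 10.51 to 10.91 in Control and 10.81 to 11.13 in cKO after quantile normalization. The part of these cells in the member differences was not tested, and in whole muscle a change in the number of cells of a type and a change in RNA per cell cannot be told apart.

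**Figure D4:**
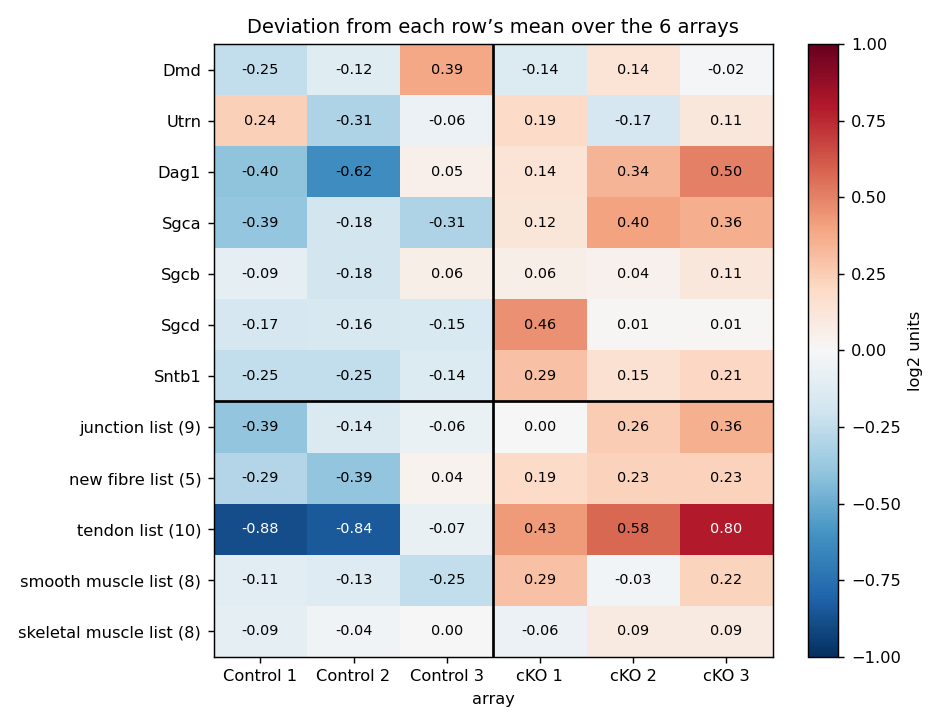
Deviation of each member (top) and of 5 marker list means (bottom) from its own mean over the 6 arrays, in log2 units, with the number of genes per list in parentheses. As deposited, the tendon, junction, new fibre and smooth muscle lists are higher on every cKO array than on every Control array, as are Dag1, Sgca, Sgcd and Sntb1. After quantile normalization, only the tendon and new fibre lists, Dag1 and Sntb1 are, and after median centring only the tendon and smooth muscle lists, Sgcd and Sntb1. The skeletal muscle list moves by 0.09 or less, but Acta1, Ckm and Myh7 of that list lie near the top of the scale.

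The genes whose pattern was most like the centred mean of the members over the 6 arrays were Psmf1 (Pearson r = 0.997), Farp2 (0.995), Sln (0.994), Mtmr3 (0.993) and Nudt16 (0.993). Only values as deposited were used, so a shift of a whole array enters this ranking. With so few arrays, r was 0.9 or more for 567 of the 13626 genes compared, and the arrays and genotype difference are shared by all of them. Of the 5, Sln, which encodes the calcium pump regulator sarcolipin, had the widest difference, 2.30 log2 units (SE 0.45), with 14.17, 13.59 and 15.38 in Control and 16.45, 16.65 and 16.94 in cKO. Psmf1, which encodes a proteasome inhibitor, had 5.30, 5.17 and 5.49 in Control and 5.81, 5.76 and 5.87 in cKO, a difference of 0.49 (SE 0.14).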

How the data were processed

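The deposited table held 1 value per feature and array, read here as log2 signals because they ran from 1.92 to 19.93. No label or header states the log base, background correction or normalization. Per the labels' protocols, 100 ng of total RNA per mouse was labelled for Affymetrix whole-transcript arrays. Of 72688 features, 65956 had values. Symbols came from the platform annotation, updated by Entrez identifier through RefSeq (GRCm38.p6; 22818 of 30604 single-symbol features matched). Where a gene had several features the highest mean was used. Features above their array's median on at least 3 arrays were tested (33334) with limma 3.58.1 in R 4.3.3 (lmFit, eBayes with trend, two-sided, no block), with Benjamini-Hochberg adjustment over all of them. Intervals are limma's.

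Members, lists and tests were chosen with earlier results of these data known. Named beyond the members were the 3 smallest p of each related list and the 5 genes of most like pattern. Nos1, Lama2, Sgce, Sgcz and examples from the marker lists were named besides. Deviations of same-numbered arrays correlated at 0.13, -0.20 and 0.21, so replicate numbers were not taken as pairs. Python 3.11.15 with pandas 2.3.3 and matplotlib 3.10.9 served for tables and plots.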

Additional observations from a re-analysis of the deposited data

How the results depend on the processing

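In 18 alternative fits, and at an adjusted p of 0.10, 0 members and 0 related genes passed. Over all features the count was 0 except without Control 3, where it was 14 (range 0 to 14 with 1 array left out). The 3 members at an unadjusted p under 0.05 became 1, Sntb1, after quantile normalization (1), median centring (1) and quantile normalization with the number range as a block (1), and ran from 1 to 3 with 1 array left out (1 without Control 1, cKO 2 or cKO 3). The 4 members without overlap became 2 after quantile normalization and 2 after median centring. The member median of 0.32 was 0.19 with array weights and 0.17 to 0.40 with 1 array left out, lowest without cKO 1. With the number range alone as a block it was 0.39, with 3 members at an unadjusted p under 0.05. The Dmd difference turned to 0.17 with array weights and ran from -0.14 to 0.18 with 1 array left out (0.18 without Control 3, 0.054 without cKO 1). With the number range as a block it was -0.14, and -0.24 with quantile normalization as well, the lowest of all fits. The Utrn difference turned to -0.12 with array weights and ran from -0.047, without Control 2, to 0.23 with 1 array left out. The contrast of Utrn with Dmd turned to -0.29 with array weights and, with 1 array left out, ran from -0.10 to 0.37. The causes were not tested. With the replicate number as a block, 3 members were at an unadjusted p under 0.05 and their median was 0.32, and the block changed no call. Each member had 1 feature, so averaging features could not differ. Every member's signal exceeded that of at least 80.4% of all features.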
